A study of Homo sapiens with 17 samples.

Results

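The genes described here carry the names given to the DEAD-box and DEAH-box RNA helicases. They were chosen as the protein-coding genes whose symbol starts with DDX or DHX followed by a digit. The name alone makes a gene a member, so a member need not belong to these families. The rule found 49 members, 34 named DDX and 15 named DHX, among 13473 protein-coding genes (PCGs) and 18869 genes in all. Helicases of these families share a core that binds ATP and RNA. They unwind short duplexes or move proteins off RNA at nearly every step of RNA metabolism, from splicing, export and ribosome assembly to translation and decay. The families are named after the single-letter code of a conserved stretch in the ATP-binding site. Several members, DDX5, DDX17 and DDX39B among them, are known as genes whose own transcripts are under post-transcriptional control.

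Ribo-STAMP used HEK293T, a human embryonic kidney cell line, with an inducible construct that had been integrated by lentivirus. RPS2-STAMP cells express the C-to-U editing enzyme APOBEC1 joined to the ribosomal protein RPS2, so that RNAs touched by ribosomes gain edits, and Control-STAMP cells express APOBEC1 alone. Both lines received 50 ng/ml doxycycline for 24 h and 0.1% formaldehyde, and RNA of the Input, of an immunoprecipitation (IP) of PABPN, the mainly nuclear poly(A)-binding protein, and of an IP of PABPC, the mainly cytoplasmic one, was sequenced after ribosomal RNA depletion. According to the paper, lysates for both IPs came from the cytoplasmic portion of fractionated cells and the Input is cytoplasmic too, so that by this account the PABPN IP is of cytoplasmic lysate. The sample labels state no fractionation. Every fraction of RPS2-STAMP had 3 samples, as did the Control-STAMP Input and PABPN IP, while the Control-STAMP PABPC IP had 2.

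For each gene and fraction the deposited table holds 1 average TPM (a transcript level corrected for gene length and library size, here exonic plus intronic) and 1 normalized EPKM (edits relative to the length of the transcript and the size of the library, with the control's editing subtracted and no value below 0). The TPM columns do not share 1 total and sum to 854272 in the Input, 975719 in the PABPN IP and 995724 in the PABPC IP. Each value is pooled over samples, so no difference between fractions has a replicate check, and no SD, n or p-value is given. The paper's methods state reads per library for its STAMP experiments together. Read and edit counts per fraction were not analysed here, so the number of edits behind each value is unknown. Members are therefore described by counts and medians beside the same over all PCGs, and no member group is called different from the rest. A mean of the 3 TPM values of at least 5 was required, which 46 members (31 DDX and 15 DHX) and 10154 PCGs passed. The members below it were DDX43, DDX58 and DDX60. DDX43, a germline helicase, was listed at an EPKM of 0 in every fraction.

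Of the markers of the line, NEFL had a TPM of 26.9 in the Input and NEFM had 9.0, while PAX2 had 0.797. PTPRC, ALB, GFAP, MYH7 and INS, markers of other cell types, were not analysed here because the table used has no row for them. The nuclear RNA MALAT1 had a TPM of 55.0 in the Input, 208 in the PABPN IP and 10.3 in the PABPC IP. For NEAT1 the values were 4.27, 55.8 and 3.25.

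Several members are paralogues of each other, and how alike they are differs between the pairs and between the stretches compared. The following windows of 30 coding bases come from the canonical transcripts of GENCODE release 44 on hg38, with the 4 codons of the family's box in capitals. The paralogue pairs are shown because they are compared with each other, and DHX9 and DHX33 because they carry the histidine form of the box.
DDX5: cttgtccttGATGAAGCAGATagaatgctt
DDX17: cttgtattgGACGAAGCTGACagaatgctt
DDX39A: tttgtgctgGACGAGTGTGACaagatgctg
DDX39B: tttattttgGATGAATGTGATaagatgctt
DDX19A: tttgttctgGATGAGGCTGATgtcatgata
DDX19B: tttgttctgGATGAGGCTGATgtcatgata
DDX21: gttgtcctgGATGAAGTGGACcagatgttg
DDX50: gttgtgcttGATGAAGTGGATcagatgtta
DHX9: gtaattgtaGATGAAATACATgaaagagat
DHX33: gtcattttgGATGAAGCTCACgaacggact
The windows of DDX19A and DDX19B were the same at 30 of 30 bases, those of DDX21 and DDX50 at 26, those of DDX5 and DDX17 at 24 and those of DDX39A and DDX39B at 23. Over the aligned coding bases, identity was 95.3% for DDX19A and DDX19B, 80% for DDX39A and DDX39B, 71.2% for DDX21 and DDX50 and 70.7% for DDX5 and DDX17. The longest run of bases that DDX19A and DDX19B transcripts shared was 377, longer than the 100-nucleotide reads, so their reads can be split between them and both values are uncertain. The longest shared run was 26 bases for DDX5 and DDX17 and for DDX39A and DDX39B, and 21 for DDX21 and DDX50. DDX11 shared a run of 284 bases with its pseudogene DDX12P, and its values are uncertain for the same reason.

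The levels of the members were spread over a wide range, and most were highest in the PABPN IP. The median TPM of the 46 members was 21.5 in the Input, 52.2 in the PABPN IP and 30.7 in the PABPC IP, against 14.7, 36.1 and 26.7 over all PCGs. TPM was highest in the PABPN IP for 42 members (91.3%) and in the PABPC IP for 4, and highest in the Input for 0. Over all 10154 PCGs the PABPN IP was highest for 6070 (59.8%), the PABPC IP for 4041 and the Input for 43. The 4 members with the highest TPM in the PABPC IP were DDX49, DDX39A, DDX54 and DHX40.

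**Figure D1:**
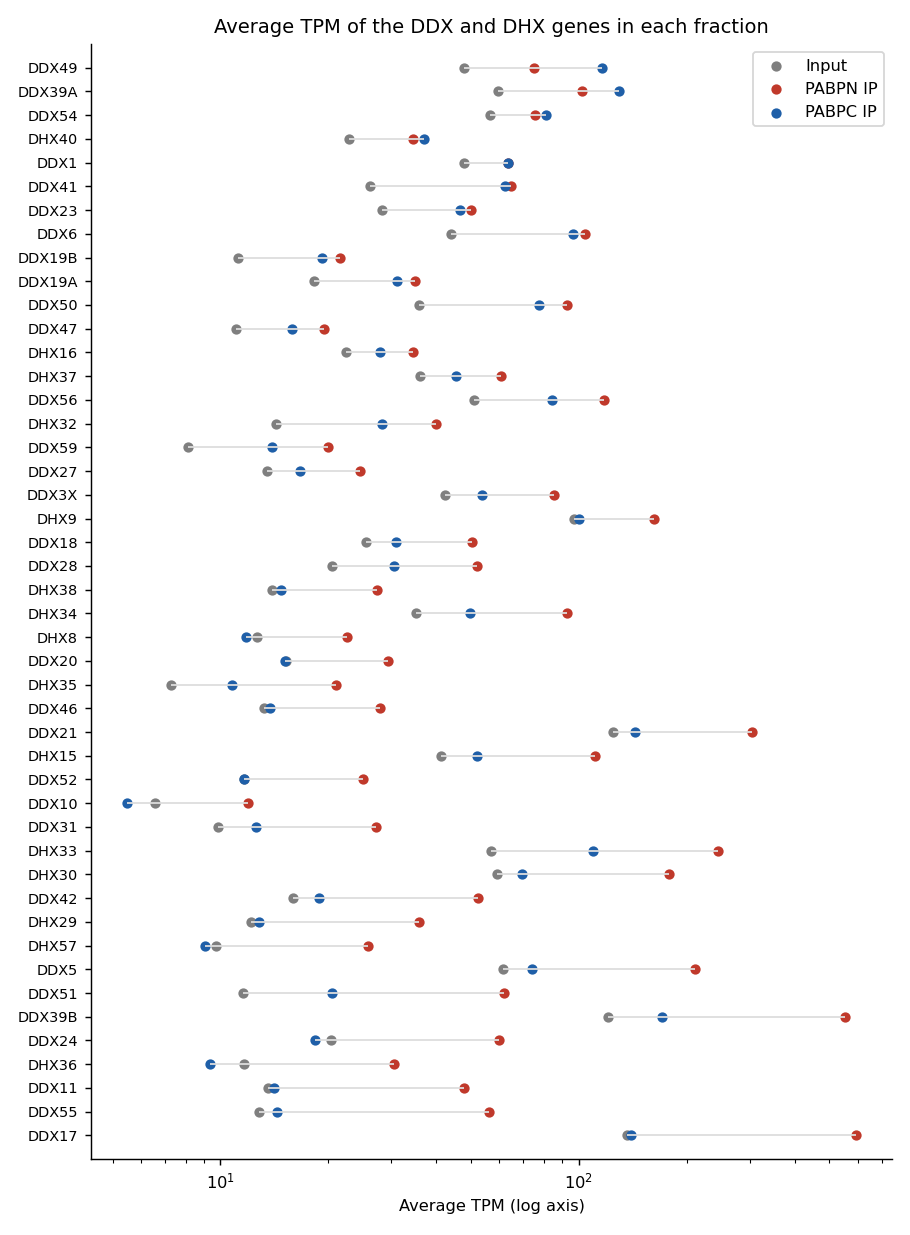
Average TPM (log axis) of the 46 DDX and DHX genes with a mean TPM of at least 5 in the Input (grey), PABPN IP (red) and PABPC IP (blue), sorted by the ratio of the PABPC IP to the PABPN IP; a point can hide another of equal value. The red point lies to the right of the blue one for 42 genes, and DDX17 and DDX39B reach 594 and 554 TPM in the PABPN IP.

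To compare the IPs, log2 ratios of TPM were centred on their median over PCGs, which was -0.27 for the PABPC IP to the PABPN IP, 1.19 for the PABPN IP to the Input and 0.95 for the PABPC IP to the Input. A centred ratio above 0.5 or below -0.5 was counted as skewed. Toward the PABPN IP, 25 of 46 members (54.3%) were skewed, against 33.2% of PCGs. Toward the PABPC IP, 2 members (4.35%) were skewed, DDX49 and DDX39A, against 31.7% of PCGs. The members' median centred ratio was -0.62, with quartiles of -1.04 and -0.03. Other centrings move all genes alike, so they cannot change the gap between the members and the median PCG. DDX28, at -0.505 and just below the threshold, and DDX18, at -0.43, lay on its 2 sides.

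Coding length moved with this ratio. Over 10147 PCGs with a coding length, Spearman's rho between coding length and the centred ratio was -0.63, and over the 46 members it was -0.28. Members had a median coding length of 2237 bases, against 1365 over PCGs. Among the 1765 PCGs with a coding length between the members' quartiles, a band chosen after the values were seen, 46.9% were skewed toward the PABPN IP, and 11 of the 22 members in that band were (50.0%). The share skewed toward the PABPC IP was 8.16% in that band, with 0 of the 22 members. Genes are not independent replicates, and the correlations in the text, chosen from 49 pairs of a feature and a measure, are descriptions.

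**Figure D2:**
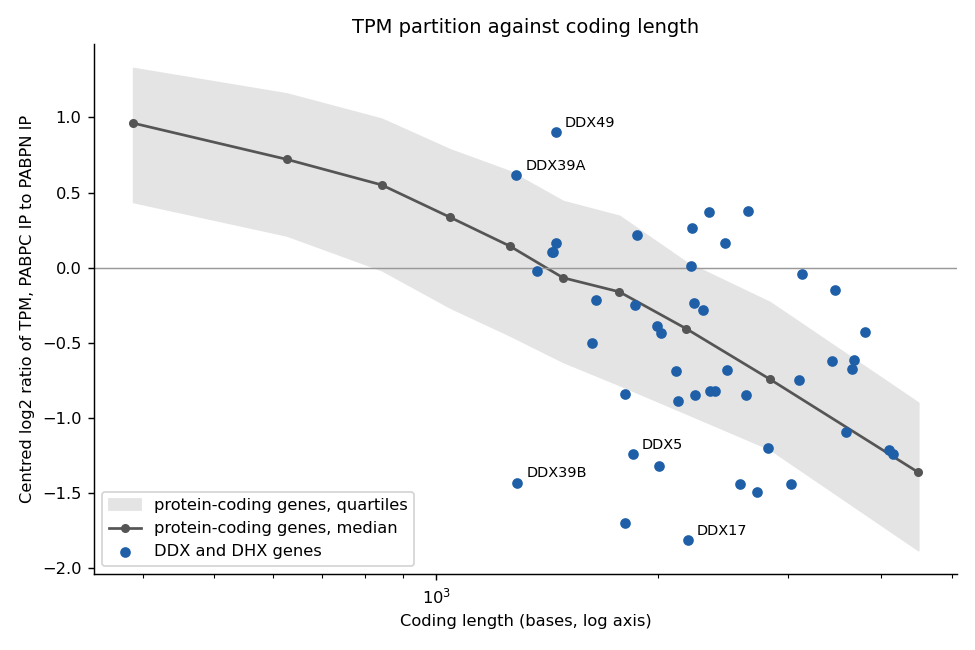
Centred log2 ratio of TPM, PABPC IP to PABPN IP, against coding length in bases (log axis) for the 46 members (blue points), with the median (line) and quartiles (band) of PCGs in 10 bins of coding length. The PCG median goes from 0.96 in the bin of shortest genes to -1.36 in the bin of longest, and DDX39B and DDX17 lie below the band while DDX49 lies above it.

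Against the Input, the members' median centred ratio with PABPN was 0.08, and with PABPC it was -0.61. A total of 26 members (56.5%) were depleted from the PABPC IP (centred ratio below -0.5), against 19.6% of PCGs, and 0 were enriched, against 9.74%. In the coding-length band these depleted shares were 31.0% of PCGs and 12 of 22 members (54.5%). In the PABPN IP, 8 members (17.4%) were enriched, against 26.0% of PCGs, and 5 (10.9%) were depleted, against 23.0%. With a mean TPM of at least 20 and the centre taken anew over the genes kept, the enriched were 11 of 32 members (34.4%), against 25.4% of PCGs. The filter removed no enriched member, and the added ones passed through the moved centre. Both comparisons share the Input. Without centring, the median PCG lies at 1.19 and 0.95. In the PABPN IP 44 members (95.7%) were then enriched and 0 depleted, against 85.3% and 0.56% of PCGs. In the PABPC IP 19 (41.3%) were enriched and 0 depleted, against 78.4% and 1.11% of PCGs. With each column scaled to the same total 41 (89.1%) were enriched and 0 depleted in the PABPN IP, against 76.9% and 1.04% of PCGs. In the PABPC IP 12 (26.1%) were enriched and 1 (2.17%) depleted, against 66.1% and 2.23% of PCGs. The depletion is therefore relative to the median PCG.

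DDX17, DDX39B and DDX5 were among the members most shifted to the PABPN IP. DDX17, a coregulator of transcription and splicing (ENSG00000100201, chromosome 22 of hg38 from 38483438 to 38507660, minus strand), had a TPM of 136 in the Input, 594 in the PABPN IP and 140 in the PABPC IP. Its centred ratio of -1.82 was the lowest of the 46. DDX39B, which acts in splicing and mRNA export (ENSG00000198563, chromosome 6 from 31530219 to 31542448, minus strand), had a TPM of 120 in the Input, 554 in the PABPN IP and 170 in the PABPC IP, with a centred ratio of -1.43. DDX5, the close relative of DDX17 (ENSG00000108654, chromosome 17 from 64498254 to 64508199, minus strand), had a TPM of 61.6 in the Input, 211 in the PABPN IP and 74.0 in the PABPC IP, with a centred ratio of -1.24. Relative to the median PCG, the log2 ratios of the PABPN IP and of the PABPC IP to the Input were 0.93 and -0.92 for DDX17, 1.01 and -0.45 for DDX39B and 0.59 and -0.69 for DDX5, so these genes lay above the median PCG in the PABPN IP and below it in the PABPC IP. The centred ratios of DDX17, DDX39B and DDX5 exceeded those of 5.90%, 10.8% and 14.1% of PCGs.

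Editing of these genes went in different directions. For DDX17 the EPKM was 0.0360 in the Input, 0.0316 with PABPN and 0.0995 with PABPC. DDX39B had 0.159 EPKM in the Input and 0.0570 with PABPC, and with PABPN it was listed at 0. For DDX5 the PABPN IP gave 0.190 EPKM, whereas Input and PABPC IP were both listed at 0. The DDX5 difference of -0.190 EPKM (PABPC IP minus PABPN IP) was the lowest of all members. A gene listed at 0 in the Input although its TPM there was 61.6 shows that a 0 in this table is not an absence of RNA.

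The paralogues DDX39A and DDX39B differed more in TPM partition than any other pair. DDX39A, which shares the export role (ENSG00000123136, chromosome 19 from 14408798 to 14419383, minus strand), had a TPM of 59.4 in the Input, 102 in the PABPN IP and 129 in the PABPC IP. The level of DDX39A relative to DDX39B was 0.494 in the Input, 0.184 in the PABPN IP and 0.761 in the PABPC IP, and their log2 ratios of PABPC IP to PABPN IP differed by 2.05. Their coding lengths were 1284 and 1287 bases. The EPKM of DDX39A was 0.0996 in the Input, 0.0539 in the PABPN IP and 0.0325 in the PABPC IP.

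The other pairs were closer. DDX21 and DDX50, nucleolar helicases encoded by neighbouring genes on chromosome 10, had a TPM of 124 and 35.8 in the Input, 305 and 92.8 in the PABPN IP and 143 and 77.4 in the PABPC IP. Their log2 ratios of PABPC IP to PABPN IP differed by -0.83, DDX21 being lower. For DDX5 and DDX17 the difference was 0.58. For DDX19A and DDX19B, which act in mRNA export at the nuclear pore, it was -0.0020, and the TPM of DDX19A was 1.62, 1.62 and 1.61 times that of DDX19B in the Input, PABPN IP and PABPC IP. Other genes on either strand cover 87.0% of the DDX19A span and 43.6% of the DDX19B span in GENCODE release 44. The authors removed overlapping regions of their own annotation before counting, and these need not be the same regions. DDX3Y and DDX60L, the remaining paralogues listed, were not analysed here.

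Among the helicases of splicing and export, 7 of 13 were skewed toward the PABPN IP (33.2% of PCGs) and 1 toward the PABPC IP (31.7% of PCGs), with a median centred ratio of -0.61. DDX39B and DDX39A were the most abundant, followed by DHX15, which takes apart spliceosomes and had a TPM of 41.2 in the Input, 111 in the PABPN IP and 52.1 in the PABPC IP. Editing of DHX15 was 0.0649 EPKM in the Input, 0.159 in the PABPN IP and 0.0412 in the PABPC IP. EPKM was higher in the PABPN IP for 9 of these 13 genes, against 38.4% of all PCGs, and in the PABPC IP for 3, against 55.3%, and 1 was listed at 0 in both IPs.

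Among the helicases of ribosome biogenesis, 8 of 16 were skewed toward the PABPN IP (33.2% of PCGs) and 1 toward the PABPC IP (31.7% of PCGs), with a median centred ratio of -0.63. DHX33 had a TPM of 56.8 in the Input, 245 in the PABPN IP and 110 in the PABPC IP, and DDX56 had 51.1, 118 and 84.2. The lowest ratios of the group were -1.70 for DDX55 and -1.44 for DDX24. DDX55 had a TPM of 12.8 in the Input, 56.3 in the PABPN IP and 14.3 in the PABPC IP. DDX49 had the highest ratio of all members, 0.90, with a TPM of 48.0 in the Input, 74.9 in the PABPN IP and 116 in the PABPC IP. DDX54 followed in this group at 0.37, with 56.5, 75.5 and 81.2.

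The remaining roles hold few members. Of all PCGs, 33.2% were skewed toward the PABPN IP and 19.6% were depleted from the PABPC IP. Among PCGs in the members' coding-length band, these shares were 46.9% and 31.0%. The counts of no role were matched for coding length. Of the 5 helicases of nuclear RNA metabolism, 3 were skewed toward the PABPN IP, and all 5 had a PABPC IP to Input ratio below the threshold after centring. Before centring these log2 ratios lay between -0.0067 and 0.40, the latter for DDX1. DHX9, also called RNA helicase A, had a TPM of 96.7 in the Input, 162 in the PABPN IP and 100.2 in the PABPC IP, and DDX1, a helicase linked to tRNA ligation, had 47.9, 63.6 and 63.3. Of the 5 helicases of translation and mRNA decay, 3 were skewed toward the PABPN IP. DDX6, a decay and repression factor of P-bodies, had a TPM of 44 in the Input, 104 in the PABPN IP and 96.3 in the PABPC IP. DDX3X, which helps initiate translation, had 42.4, 85.0 and 53.7, and DHX34, a factor of nonsense-mediated decay, had 35.2, 92.4 and 49.7. DHX36, which unwinds G-quadruplexes, had a centred ratio of -1.44 with a TPM of 11.6, 30.6 and 9.32.

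Of the mitochondrial RNA helicases, DHX30 had a centred ratio of -1.09 and DDX28 one of -0.505, and DDX28 would not be counted as skewed with ratios centred on all genes. DHX30 had a TPM of 59.1 in the Input, 178 in the PABPN IP and 69.2 in the PABPC IP, and DDX28 had 20.5, 52.1 and 30.4. Other genes on either strand cover the whole DDX28 span (100%) in GENCODE release 44. The authors counted on a custom annotation from a different release, so the DDX28 regions they kept are not known here. Of the 5 members with other roles, DHX40 had a TPM of 22.8, 34.5 and 37.0, DHX32 had 14.3, 40.1 and 28.2 and DDX11 had 13.6, 47.9 and 14.1, in the same order of fractions. The centred ratio of DDX11 was -1.50, and the search for the family's box gave no match in it.

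**Figure D3:**
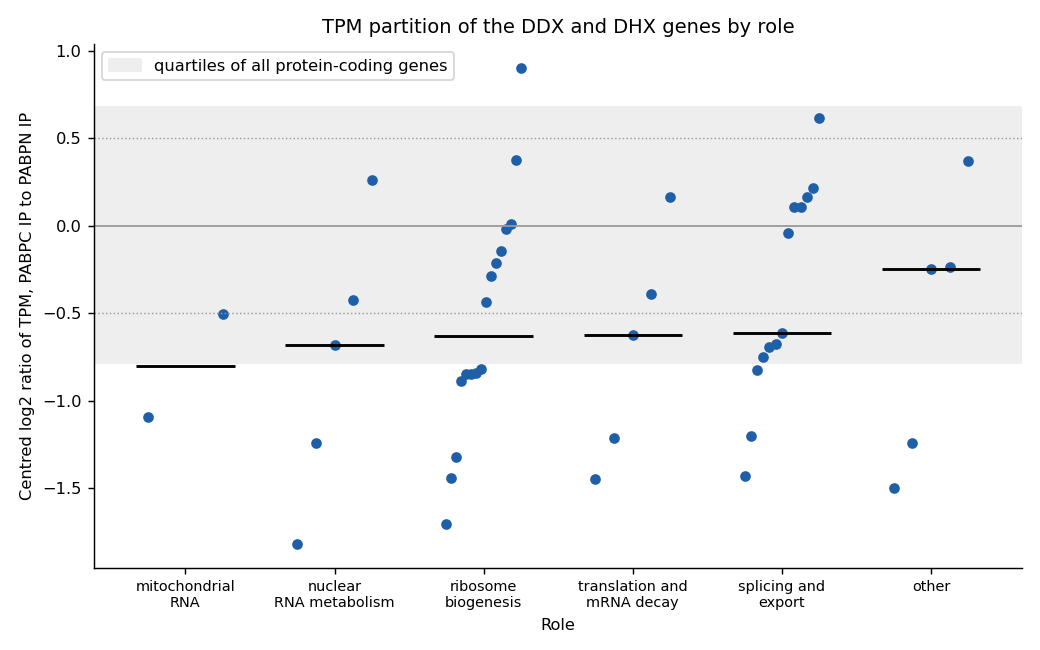
Centred log2 ratio of TPM, PABPC IP to PABPN IP, for each of the 46 members by role (points), with the median of each role (bar), the quartiles of all PCGs (grey band) and the thresholds of 0.5 and -0.5 (dotted). Every role has a median below 0 and its members overlap those of the other roles.

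The members enriched in the PABPN IP over the Input were DDX51, DDX39B, DDX55, DDX17, DHX33, DDX11, DDX5 and DDX42, the names DDX51 and DDX42 being given after their values were seen. DDX51, a ribosome biogenesis helicase, had the highest centred ratio, 1.23, with a TPM of 11.5 in the Input, 61.6 in the PABPN IP and 20.5 in the PABPC IP. The members depleted from it were DDX1, DDX54, DHX40, DHX16 and DDX49, of which DHX16 was likewise named after its value was seen. Their centred ratios lay between -0.78 for DDX1 and -0.54 for DDX49.

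Most members were edited in each fraction. EPKM was above 0 in the Input for 38 of 46 members (82.6%), in the PABPN IP for 36 (78.3%) and in the PABPC IP for 37 (80.4%), against 77.4%, 72.7% and 82.1% of PCGs. It was above 0 in all 3 fractions for 25 members (54.3%), against 49.6% of PCGs. With a threshold of 0.01 EPKM these shares were 50.0% and 37.4%. With a mean TPM of at least 20 they were 56.25% and 56.11%, so the excess was lost. The median EPKM of the members was 0.0378 in the Input, 0.0532 in the PABPN IP and 0.0441 in the PABPC IP, against 0.0245, 0.0324 and 0.0461 over PCGs. As a mean, the Input value was 0.0541 over the members and 0.0604 over PCGs, so this order turned with the summary.

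For 20 members (43.5%) the PABPC IP had the higher EPKM, against 55.3% of PCGs, for 24 (52.2%) the PABPN IP did, against 38.4%, and 2 were tied, both listed at 0 in each IP. On the log2(EPKM + 0.01) scale, 14 members (30.4%) exceeded their PABPN IP value in the PABPC IP by 2-fold or more, against 35.4% of PCGs, and 14 (30.4%) did so in the other direction, against 21.8%. With a mean TPM of at least 20 the latter were 6 of 32 members (18.8%), against 19.2% of PCGs, so this excess depends on the filter. With a pseudocount of 0.1 EPKM the former were 6 (13.0%), against 8.53% of PCGs, and so lay above PCGs rather than below. The median difference (PABPC IP minus PABPN IP) was -0.00256 EPKM for the members and 0.00868 for PCGs. The members' median lay near 0. Its sign turned with the mean in place of the median (0.00934, against 0.0182 over PCGs) and with a mean TPM of at least 20 (0.00827, against 0.0195). It was -0.0215 over genes above 0 in both IPs (against 0.00886). Without the 6 members whose span other genes cover by over 40% it was -0.0103. No direction is therefore given for the family. The value over the members was below that over PCGs in each of these.

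**Figure D4:**
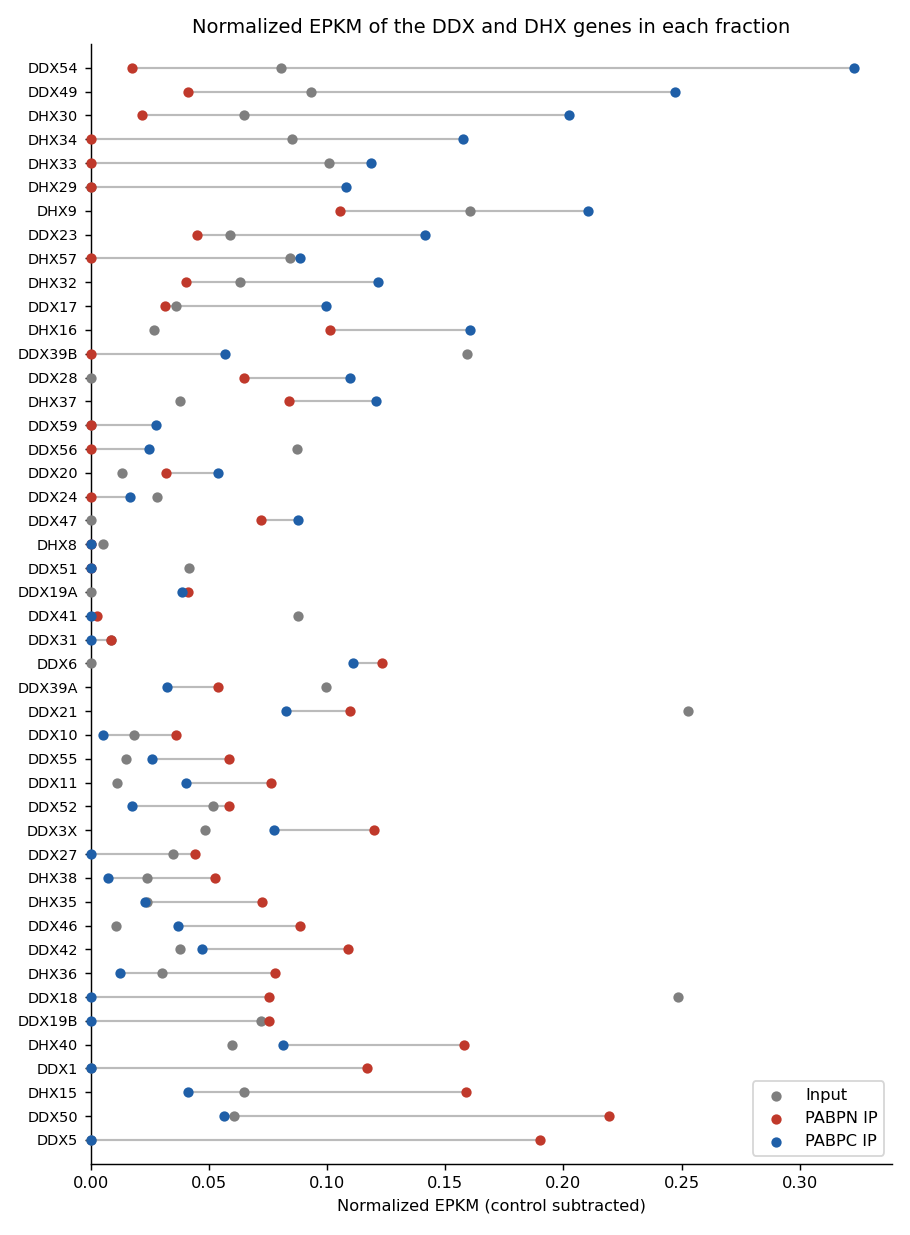
Normalized EPKM of the 46 members in the Input (grey), PABPN IP (red) and PABPC IP (blue), sorted by the difference between the IPs, with a line joining the IPs; points at 0 can hide each other. DDX54 and DDX49 are at the top with the largest excess in the PABPC IP, and DDX5 and DDX50 are at the bottom with the largest excess in the PABPN IP.

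The largest excess of editing in the PABPC IP was in DDX54, with an EPKM of 0.0803 in the Input, 0.0176 in the PABPN IP and 0.323 in the PABPC IP. DDX49 followed with 0.0932, 0.0411 and 0.247, and DHX30 with 0.0649, 0.0219 and 0.202. DHX34 had 0.0850 in the Input and 0.158 with PABPC, DHX33 had 0.101 and 0.118, and both were listed at 0 in the PABPN IP. DDX54 and DDX49 thus had high values in the PABPC IP by EPKM and by TPM, while DHX30 and DHX33 had their highest TPM in the PABPN IP.

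The largest excess in the PABPN IP after DDX5 was in DDX50, with an EPKM of 0.0608 in the Input, 0.219 in the PABPN IP and 0.0564 in the PABPC IP. DHX15 was described above, and DDX1 had 0.117 with PABPN, with a listed 0 for Input and PABPC IP. DHX40 had 0.0597 in the Input, 0.158 in the PABPN IP and 0.0813 in the PABPC IP. The highest Input values were in DDX21, with 0.253 in the Input, 0.110 in the PABPN IP and 0.0827 in the PABPC IP, and in DDX18, with 0.248 and 0.0755 and a listed 0 in the PABPC IP. Both act in the nucleolus. DHX9 had 0.161 in the Input, 0.105 in the PABPN IP and 0.210 in the PABPC IP.

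The DHX genes had a higher median EPKM in the PABPC IP than the DDX genes. It was 0.108 for 15 DHX genes and 0.0368 for 31 DDX genes, against 0.0461 over PCGs, while the medians in the PABPN IP were 0.0525 and 0.0539, against 0.0324. EPKM was higher in the PABPC IP for 9 DHX genes (60%) and 11 DDX genes (35.5%), against 55.3% of PCGs, and higher in the PABPN IP for 5 (33.3%) and 19 (61.3%), against 38.4%. The search, within its limits, found the box in 45 of 49 members. In 30 it ended in aspartate, as in DEAD, and in 15 in histidine, as in DEAH. The 15 with histidine were 14 DHX genes and DDX58, which lay below the TPM minimum. The difference between DDX and DHX genes has no replicate check and was not tested.

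C-to-U editing needs cytosines, and the share of C in the coding sequence moved with the editing difference. Over the 46 members, Spearman's rho between this share and the EPKM difference (PABPC IP minus PABPN IP) was 0.57, against 0.15 over 10147 PCGs. With the EPKM of the PABPN IP alone, rho was -0.49 over the members and -0.09 over PCGs, with that of the PABPC IP it was 0.24 and 0.11, and with that of the Input it was 0.22 and -0.10. DDX54 and DDX49 held 30.3% and 30.4% C, DHX30 held 29.8%, DDX5 held 18.4% and DDX50 held 18.3%. The part of base composition in the editing differences was not tested. Mean TPM moved with editing in the Input too, with a rho of 0.50 over the members and 0.52 over PCGs.

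Helicases outside the name rule, such as the translation factor EIF4A1, were described from a list, of which 14 were in the table. Of the 13 that passed the TPM minimum, 11 (84.6%) were skewed toward the PABPN IP, against 33.2% of PCGs, and 2 (15.4%) toward the PABPC IP, against 31.7%, with a median centred ratio of -1.16. EIF4A1 had a TPM of 365 in the Input, 399 in the PABPN IP and 655 in the PABPC IP, while EIF4A2 had 39.5, 124 and 60.1. Of 27 helicase partners that passed, 12 (44.4%) were skewed toward the PABPN IP and 11 (40.7%) toward the PABPC IP, against the same PCG shares of 33.2% and 31.7%. Neither list was matched for coding length. ALYREF, the export adaptor that binds DDX39B, had a TPM of 129 in the Input, 112 in the PABPN IP and 316 in the PABPC IP.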

How the data were processed

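Per the submitters' processing notes and methods, STAR placed the reads on hg38 and featureCounts 2.0.2 counted them, using an annotation without overlapping-gene regions. The deposited EPKM is a signal from which the authors subtracted control editing. The way replicates were merged is not given in the sources used here. The deposited TPM values are averages per fraction of exonic plus intronic TPM, computed by the authors. No column holds single samples, so no test was run.

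Computed here were counts, medians, Spearman correlations and log2 ratios centred on the median over PCGs. The settings were a mean TPM of at least 5, a pseudocount of 0.01 EPKM, a 2-fold difference and a log2 threshold of 0.5. Alternatives changed the filter, the pseudocount, the centring, the thresholds and the summary. The summaries were tested on simulated data. The members and lists were chosen with earlier results of these data known.

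Genes named in the text are DDX5, DDX17 and DDX39B, the paralogue pairs, the 5 members at each end of the EPKM difference and of the PABPC IP to PABPN IP ratio, the 5 with the highest Input EPKM, the 3 with the highest mean TPM in each role, members below the TPM minimum and members at 0 in every fraction, with exceptions stated.

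Gene models came from GENCODE release 44, in which 18806 of 18869 genes and all 49 members were found by identifier. The box was searched between 30 and 260 residues after the ATP-binding motif. The letter after its DE was limited to A, V, I, C or S after a first search, which allowed any letter, had misplaced the box of DHX15, so the pattern was adjusted after its result was seen. DDX1, DDX11, DDX60 and DHX32 gave no match within these limits. A box farther from the motif or of another form would be missed, so no match does not mean that a gene lacks the box. The coding-length band and the alternative without members whose span other genes cover by over 40% were also added after the data were examined. The software was Biopython 1.88, SciPy 1.17.1, pandas 2.3.3, NumPy 2.4.6 and matplotlib 3.10.9 under Python 3.11.15.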

Additional observations from a re-analysis of the deposited data

Results flagged for a closer look

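Genes with a DDX or DHX name that are not protein-coding were outside the comparisons. Editing exceeded the subtracted control for 5 of these 7. Of the 10154 PCGs that passed the TPM minimum, only 217 were listed at 0 in every fraction. A value above 0 therefore does not set these 5 apart. The TPM minimum was not applied to the 7, and no share over other non-coding genes was computed. The highest EPKM was 0.191 in the Input for the pseudogene DDX12P, 0.102 in the PABPN IP for the lncRNA DDX19A-DT, 0.0379 in the Input for the pseudogene DHX40P1, 0.0227 in the PABPC IP for the lncRNA DDX11-AS1 and 0.00378 in the PABPN IP for the pseudogene DDX50P1. DDX12P had a TPM of 5.17 in the Input, 49.7 in the PABPN IP and 6.82 in the PABPC IP, and the TPM of DDX11 is given above.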

How the results depend on the processing

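No paired analysis was possible because each value is pooled over replicates. Of 104 recomputed values, 76 stayed within 1.5 times the count, or within the 95% order-statistic interval of the median over members, 26 moved and 2 changed sign. The cause was not tested. Counts were compared without regard to the number of genes kept. Enrichment in the PABPN IP, 8 of 46 members in the main run and 11 of 32 with a mean TPM of at least 20, is therefore among the 76. The interval is over genes, which are not replicates. The median EPKM difference of -0.00256 became 0.00934 as a mean (0.0182 over PCGs) and 0.00827 with a mean TPM of at least 20 (0.0195 over PCGs). In its own direction it became -0.0215 over genes above 0 in both IPs (0.00886 over PCGs). Without the 6 members whose span other genes cover by over 40% it was -0.0103. Of the 14 members 2-fold or more higher by EPKM with PABPC, 6 were left with a pseudocount of 0.1 (13.0%, against 8.53% of PCGs, above them where the main share lies below) and 6 with genes above 0 in both IPs (13.0%, against 16.4%). Of the 14 higher in the PABPN IP, the numbers were 3 (6.52%, against 3.64%) and 9 (19.6%, against 11.2%), and with a mean TPM of at least 20 they were 6 of 32 (18.8%), against 19.2% of PCGs, so the excess over PCGs was lost. The shares given for genes above 0 in both IPs are of all 46 members and all 10154 PCGs, not of those genes alone. With a log2 threshold of 1, 12 members were skewed to the PABPN IP (26.1%, against 19.5% of PCGs, a smaller excess) and 0 to the PABPC IP (against 14.2%), 2 were enriched in (4.35%, against 10.2%) and 0 depleted from the PABPN IP (against 5.89%), and 5 were depleted from the PABPC IP (10.9%, against 4.96%). Without centring, 1 was skewed to the PABPC IP (against 21.9% of PCGs). In the PABPN IP 44 were enriched and 0 depleted (against 85.3% and 0.56%). In the PABPC IP 19 were enriched and 0 depleted (against 78.4% and 1.11%). The median ratio was -0.89 (against -0.27). With columns scaled to the same total these values were 1 (against 20.8%), 41 and 0 (against 76.9% and 1.04%), 12 and 1 (against 66.1% and 2.23%) and -0.92 (against -0.30). Each filter was run with the centre taken anew over the genes kept, so both changed. With a mean TPM of at least 20, 1 was skewed to the PABPC IP (against 28.8% of PCGs), 2 were depleted from the PABPN IP (against 20.7%) and 11 of 32 were enriched in it (34.4%, against 25.4% of PCGs, above them where the main share lies below), and with no filter the first 2 counts were 4 (against 32.1%) and 8 (against 24.8%). Leaving out the 6 members whose span other genes cover by over 40%, chosen after the data were seen, moved no count by over 1.5 times. The number of edits behind each value is unknown, and low or 0 EPKM values can rest on few edits.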
